A study of Drosophila melanogaster and Drosophila simulans and Drosophila yakuba with 4 samples.

Results

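The proneural basic helix-loop-helix (bHLH) genes and the Iroquois homeobox genes of D. melanogaster were examined in RNA extracted from whole animals at the white prepupa stage, when the puparium has just formed. The 10 genes were listed by name and found by their FlyBase identifiers: ac, sc, l(1)sc and ase of the achaete-scute complex, ato, amos and cato of the atonal family, and ara, caup and mirr of the Iroquois complex. All 10 were present among the 15492 genes listed for this library. The series holds 1 RNA library for each of 4 Drosophila species. The labels give stage and source (whole animal) and name no strain, sex, allele or treatment. The other 3 species were not used here, because their gene identifiers could not be matched to these genes. The values therefore come from 1 library, without replicates or p-values, and nothing was compared between species.

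Proneural proteins are transcriptional activators that give ectodermal cells the competence to become neural precursors. They bind DNA as dimers with the bHLH protein Daughterless. Within a cluster of competent cells, Notch signaling turns on repressors of the E(spl) complex in most cells, so that the proneural genes stay active only in the cells singled out as precursors. Iroquois proteins are homeodomain transcription factors of the TALE class that act upstream as prepattern factors in the wing disc, where ara and caup promote ac and sc expression, and mirr helps define the dorsal part of the eye. The achaete-scute and Iroquois complexes are both known targets of Polycomb repression. H3K27me3, the histone mark of the study, was not analysed here at these genes.

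The library was deposited as FPKM, fragment counts divided by a transcript length and by the total that mapped. Levels can therefore be set roughly beside each other between genes. The reads behind each value were worked out from Cufflinks' bounds, and came to 12038283 over the library. Together the 10 genes held 1134 of these implied reads, or 0.00942%. For the proneural genes, implied reads per FPKM did not keep a fixed proportion to locus length. Comparisons between genes of unlike length are therefore approximate. Stage and tissue markers are only a rough guide to what was sampled, since those of the same tissue often differed widely. The prepupal genes Eip71CD, ImpE2 and Eig71Ea stood between 244.6 and 5787, and the fat body genes Lsp2 and Fbp1 at 6146 and 6499. The muscle genes TpnC73F, up and Mhc stood between 4.82 and 288.5. Midgut genes stood at 5.11 (betaTry) and 2508 (Jon65Aiv), and hemocyte genes at 0.341 (Hml) and 42.6 (He). Markers of the imaginal discs and the nervous system, where proneural genes are known to act, lay below the fat body and prepupal genes. They did not all lie below the muscle, midgut and hemocyte genes. Of 6 disc genes 5 were matched (ap was not), from vg at 1.06 to sd at 49.6. The neuronal genes ran from futsch at 0.422 to Syt1 at 24.0, and the glial genes repo and moody stood at 1.47 and 3.45. In RNA from whole animals, few expressing cells and little RNA per cell cannot be told apart. The title and the organism field of this sample name different species. The title was used, since 14872 of the gene identifiers are in the D. melanogaster gene table. Such identifiers show which annotation the reads were counted on, and do not by themselves settle the species of the animals.

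Expression of the 10 genes was low to moderate and spread widely. At FPKM 1 or more stood 9 of the 10, against 74.5% of all genes listed. By Cufflinks' lower bound 7 of the 10 reached 1, against 69.4% of all genes, and at FPKM 5 or more stood 2 of the 10, against 55.5%. The median of the 10 genes was 2.25 and that of all genes 6.90. Only sc and ac lay above the median of all genes, and 9 of the 10 lay between its 25th and 75th percentiles, at 0.949 and 27.3.

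**Figure D1:**
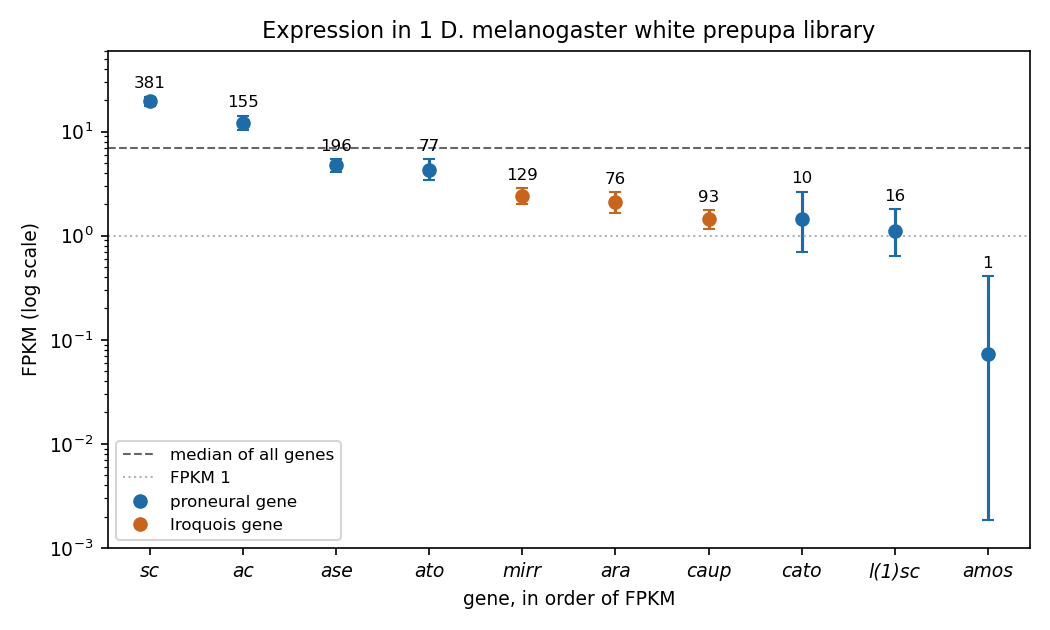
FPKM of the 10 genes (y axis, log scale) in the single D. melanogaster library, in order of level, with proneural genes in blue and Iroquois genes in orange. Bars are exact 95% Poisson intervals from the implied reads, whose number stands above each bar, and cover counting error only. The dashed line is the median of all genes (6.90) and the dotted line FPKM 1. Only sc and ac lie above the dashed line, and amos alone lies below FPKM 1.

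The achaete-scute complex held both the highest gene and 1 of the lowest. The gene sc, which together with ac specifies the external sensory bristles of the adult, had an FPKM of 19.6 (exact 95% Poisson interval 17.7 to 21.7, from 381 implied reads). Of all genes listed, it lay at the 69.1st percentile. Its partner ac had an FPKM of 12.2 (10.3 to 14.2, from 155 reads), at the 60.6th percentile. The FPKM of sc was 1.62 times that of ac (exact 95% binomial interval on the reads 1.34 to 1.96). Both genes together supplied 47.3% of the implied reads of the 10 genes.

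Further along the complex the levels were lower. The gene ase, which is expressed in precursors once they have been singled out and in neuroblasts rather than in proneural clusters, had an FPKM of 4.76 (4.11 to 5.47, from 196 reads). The gene l(1)sc, whose main proneural role is in the embryonic central nervous system, had an FPKM of 1.11 (0.637 to 1.81, from 16 reads), with an interval that holds FPKM 1. The level of sc was 17.6 times that of l(1)sc (10.7 to 31.2). Within this complex the genes thus differed by more than their counting error in every pair.

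In the atonal family only ato reached the level of ase. The gene ato, the proneural gene of chordotonal organs and of the founder R8 photoreceptors, had an FPKM of 4.33 (3.42 to 5.41, from 77 reads) and lay at the 42.0th percentile. The gene cato, which is expressed in sensory precursors after they are selected, had an FPKM of 1.44 (0.691 to 2.65) from 10 reads. The gene amos, the proneural gene of olfactory sensilla of the antenna, had an FPKM of 0.0733 (0.00186 to 0.408) from a single implied read. That value lies under the 0.220 FPKM that 3 reads would give at this gene, the upper limit a count of 0 allows, so at this depth amos could not be told from a gene with no reads.

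The 3 Iroquois genes stood close to each other. The gene mirr had an FPKM of 2.40 (2.0 to 2.85, from 129 reads), ara one of 2.10 (1.65 to 2.63, from 76 reads) and caup one of 1.44 (1.17 to 1.77, from 93 reads). The highest was 1.66 times the lowest (1.26 to 2.19), a narrower span than in the achaete-scute complex. Of the 3 pairs, only mirr and ara had a ratio whose interval held 1. The Iroquois median was 2.10, against 4.33 for the 7 proneural genes, a difference of -0.78 on the log2(FPKM + 1) scale. That difference rests on 3 and 7 genes of 1 library and was not tested. Its direction was not shared by both proneural families, whose medians were 8.46 (achaete-scute complex) and 1.44 (atonal family).

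Ordered by level, the genes ran sc, ac, ase, ato, mirr, ara, caup, cato, l(1)sc and amos. Of the 9 pairs of neighbors in this order, 4 had a ratio whose exact binomial interval held 1. The level of ase was 1.10 times that of ato (0.840 to 1.45), mirr 1.14 times ara (0.855 to 1.54), caup 1.0 times cato (0.521 to 2.16) and cato 1.29 times l(1)sc (0.525 to 3.03). Steps beyond counting error separated sc from ac, ac from ase (2.56, 2.06 to 3.17), ato from mirr (1.81, 1.34 to 2.41) and ara from caup (1.45, 1.06 to 1.99). The lowest step, l(1)sc over amos, was 15.2 (2.36 to 637.2), where the width comes from the single read of amos. Over all 45 pairs, 7 intervals held 1, and 5 of the 7 include cato or l(1)sc, which had 10 and 16 reads. These intervals were not adjusted for the number of pairs and do not cover variation between animals or libraries.

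**Figure D2:**
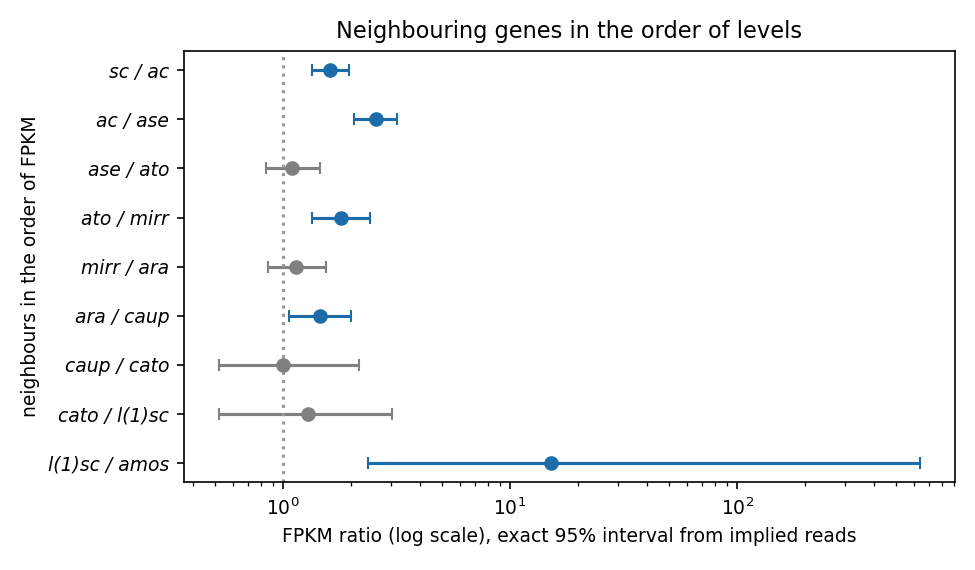
FPKM ratio (x axis, log scale) of each gene to the next lower one in the order of levels, with exact 95% binomial intervals from the implied reads. Grey points are the 4 pairs whose interval holds 1 (dotted line), and blue points the other 5. The interval of l(1)sc over amos, from 2.36 to 637.2, is the widest.

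Position on the chromosome did not order the levels in the achaete-scute complex. In dm3 coordinates its genes lie on the plus strand of chromosome X, with ac from 264064 to 264980, sc from 290093 to 291530, l(1)sc from 303756 to 304850 and ase from 354533 to 357209, a span of 93.1 kb in all. From left to right the FPKM was 12.2, 19.6, 1.11 and 4.76. The gaps between them were 25.1, 12.2 and 49.7 kb, and the nearest pair, sc and l(1)sc, differed the most. Between l(1)sc and ase lies Pgcl, with an FPKM of 0.548. To the left of ac, y, the gene of black cuticle pigment, had an FPKM of 0.236. The locus between y and ac, FBgn0261559, has no symbol in the gene table and stood at 0.866. On the right, 3.88 kb past ase, Cyp4g1, a cytochrome P450 of cuticular hydrocarbon synthesis, stood at 125.9.

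All 4 genes of the complex lie within the locus of CG32816, which runs on the minus strand (210609 to 364670) with an FPKM of 5.30. The loci y, FBgn0261559, Pgcl and Cyp4g1 lie within it too, at 0.236, 0.866, 0.548 and 125.9. In the newer dm6 annotation no exon of CG32816 or of another gene shares bases with an exon of any of the 10 genes, and none of the other 6 overlaps another locus. By the dm6 annotation, the exons of the 4 genes thus lie in introns of CG32816, while the annotation behind the FPKM is not given. Whether unspliced RNA of CG32816 added to the reads of the 4 genes was not tested. Each of the 7 proneural genes has 1 exon in the dm6 annotation, and each transcript of the 3 Iroquois genes has 5.

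In the Iroquois complex, on the plus strand of chromosome 3L, levels were close to each other and lay below the nearest gene on each side. The gene ara spans 12573772 to 12589118, caup 12602731 to 12614898 and mirr 12686739 to 12703243, over 129.5 kb. Between caup and mirr, 71.8 kb apart, lie 2 noncoding RNA genes, lncRNA:CR32111 at 2.12 and lncRNA:CR43431 at 0.805. On the left sowah, 8.13 kb from ara, stood at 7.46. On the right SmD1, a core spliceosomal protein gene 23.2 kb past mirr, stood at 83.0, and Ptp69D, a receptor tyrosine phosphatase of axon guidance, at 38.4.

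**Figure D3:**
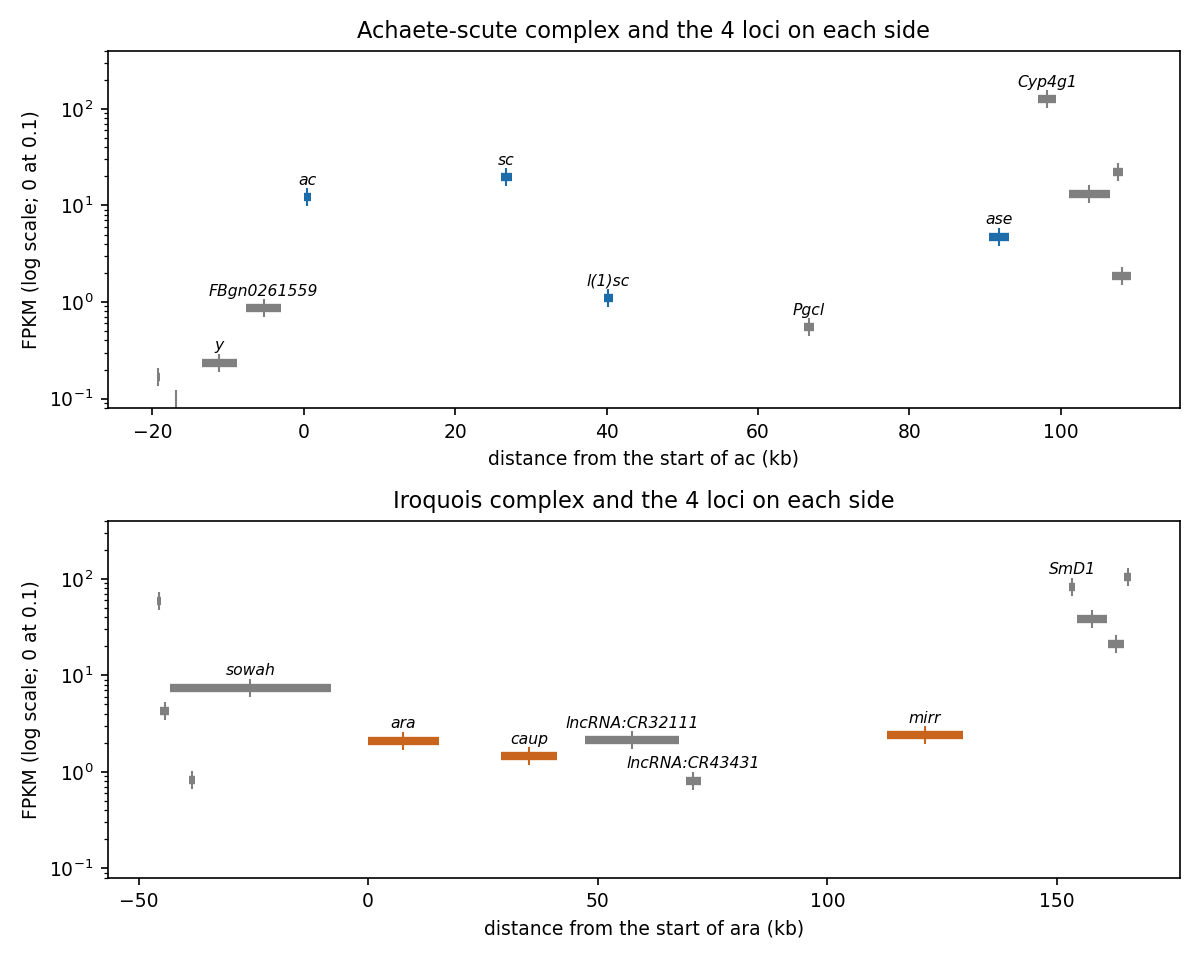
FPKM (y axis, log scale) of the loci of the achaete-scute complex (upper panel, genes in blue) and of the Iroquois complex (lower panel, genes in orange), with the 4 loci on each side and the loci between in grey. The x axis is the distance in kb from the start of ac or ara, each bar spans a locus, and CG32816, which spans the whole upper complex at 5.30, is not drawn (CG43182, at 0, is drawn at 0.1). From sc at 19.6 to l(1)sc at 1.11 the level drops over 12.2 kb, whereas ara, caup and mirr lie between 1.44 and 2.40.

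The 3 genes of the atonal family lie apart from each other. The gene ato (3R, 4103514 to 4104996, plus strand) had CG9630 at 3.09 on its left and, on its right, Nazo at 3.98 and then CG11672 at 0.749. The gene amos (2L, 18596047 to 18597200, minus strand) had CG15160 at 2.66 only 0.615 kb away on its left and CG10413 at 117.1 at 2.55 kb on its right. Both flanking loci were thus well above amos. The gene cato (2R, 12165294 to 12165902, minus strand) lay between CG33017 at 4.93 and prim at 8.03.

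Other genes of the pathway were listed from general knowledge and by role. Of 73 listed genes 69 were matched, and da, Psn, Bx and tx were not, so the level of Daughterless, the dimer partner, is not given. Among the antagonists, emc, whose protein lacks a basic region and titrates proneural proteins, stood at 152.6, which was 7.77 times sc and 12.6 times ac. The gene h (hairy), a bHLH repressor of ac, stood at 20.9. The neuroblast repressor gene dpn stood at 3.09. The 3 matched genes of this list thus all reached FPKM 1, against 74.5% of all genes listed, and their median was 20.9.

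The repressors of the E(spl) complex stood above most proneural genes. All 7 bHLH genes reached FPKM 1, against 74.5% of all genes. Their median was 25.4, and 5 of the 7 exceeded sc. The highest was E(spl)mbeta-HLH at 73.5, followed by E(spl)m7-HLH at 35.0, E(spl)mgamma-HLH at 31.5, E(spl)mdelta-HLH at 25.4 and E(spl)m8-HLH at 23.6. E(spl)m3-HLH stood at 12.2 and E(spl)m5-HLH at 3.8. The gene gro, the co-repressor they recruit, stood at 9.84.

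The Bearded family, small proteins that inhibit Neuralized, was higher still. Of its 8 genes 7 reached FPKM 1, against 74.5% of all genes, and the median was 47.8. They ran from E(spl)malpha-BFM at 225.8 and Tom at 140.1 down to E(spl)m6-BFM at 12.0, and 5 of them exceeded sc. BobA was listed at 0. It has closely similar copies, and since no source used here says how reads with several matches were counted, its value is uncertain.

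The Notch pathway itself lay nearer to the proneural genes. The 11 matched genes all reached FPKM 1, against 74.5% of all genes, around a median of 5.59. The receptor N stood at 5.70, its ligands Dl and Ser at 5.59 and 3.55, and Su(H), the DNA-binding factor of the pathway, at 2.63. The gene neur, which encodes the ubiquitin ligase Neuralized that activates Dl, was lowest at 2.51. The gene fng, a glycosyltransferase that modifies N, was highest at 45.3.

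The medians of the prepattern factors and of the precursor genes lay between those of the Iroquois genes and of the Notch pathway. Of 7 matched prepattern genes 6 reached FPKM 1, against 74.5% of all genes, and the median was 4.05. The GATA factor gene pnr, an activator of ac and sc, stood at 2.72, its cofactor and antagonist ush at 4.05, and Chip, a cofactor that links pnr to proneural proteins, at 4.74. The Hedgehog effector ci was highest at 83.2 and eyg lowest at 0.711. The list of sensory organ and neural precursor genes also holds the repressor gene ttk. All 14 genes of this list reached FPKM 1, against 74.5% of all genes, and their median was 2.61. By Cufflinks' lower bound 11 of them reached 1, against 69.4% of all genes. The gene sens, a zinc finger factor that sustains proneural expression in the precursor, was lowest at 1.04, and phyl, which acts there through degradation of the repressor ttk, stood at 1.72, with ttk highest at 21.7. The neural factors pros and nerfin-1 stood at 11.9 and 11.6.

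**Figure D4:**
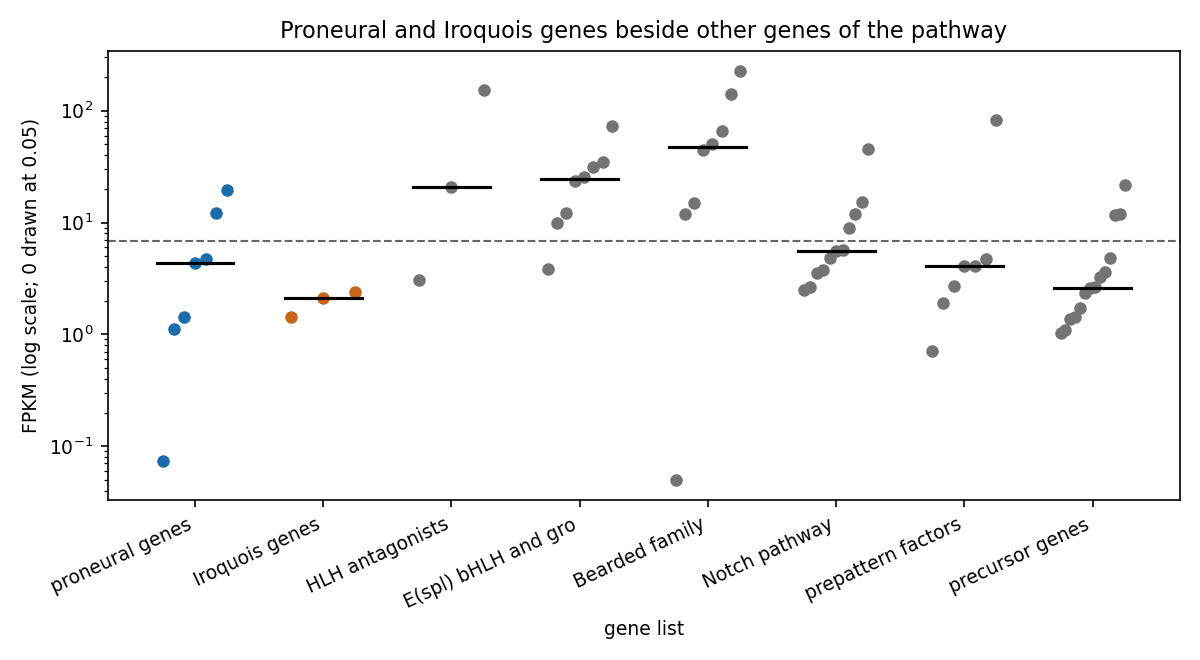
FPKM (y axis, log scale) of the 7 proneural genes (blue), the 3 Iroquois genes (orange) and the matched genes of 6 pathway lists (grey) in the D. melanogaster library. Each point is a gene, each black line the median of its list, and the dashed line the median of all genes (6.90). The list medians run from 2.10 for the Iroquois genes to 47.8 for the Bearded family, whose gene at 0 (BobA) is drawn at 0.05.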

How the data were processed

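The deposited FPKM were made by the authors with Cufflinks, after trimming of the single-end reads and alignment in TopHat. Bowtie, SAMtools and the dm3 build stand in the submitters' processing notes, but for the RNA libraries no source used here gives tool versions, annotation or read strand. These values were used as they stand, with rows of 1 gene summed. Status was OK for all 10 genes. Reads were solved from the upper bound, taken to lie 2 times the FPKM over the square root of the reads above the FPKM. For genes under 300 reads 69.3% of the solutions were whole within 0.05, and 8 of the 10 genes studied here. Solutions were rounded, and Poisson and binomial intervals cover counting error only. Reads without molecular identifiers are not independent molecules. The arithmetic was tested on simulated data. Their bounds were made with the same formula, so that test cannot show whether Cufflinks' bounds follow it. Locus starts were shifted to count from 1.

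The genes and lists were chosen with earlier results of these data known. All 10 genes, the extremes and key roles of each list, and neighboring loci are named. Symbols came from a gene table, with h, Dl, Chip and Eip71CD matched by synonym. Alternatives were FPKM minimums of 0.1 and 5, Cufflinks' lower bound, the largest row, status OK, protein-coding genes, genes above 0 and pseudocounts of 0.1 and 0 in place of 1. The work was done in Python 3.11.15 with scipy 1.17.1, pandas 2.3.3 and numpy 2.4.6, and drawn with matplotlib 3.10.9.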

Additional observations from a re-analysis of the deposited data

How the results depend on the processing

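Of 66 comparisons of a result with an alternative, 40 kept a count within 1.5 times or a value within its counting interval, and 26 did not. With an FPKM minimum of 5 in place of 1, the count fell to 2 of the 10 genes, against 55.5% of all genes listed. It fell to 6 of 11 in the Notch pathway list, to 1 of 7 prepattern factors and to 3 of 14 precursor genes. Among the other bHLH genes it fell to 3 of 14, and among the other listed TALE genes to 2 of 4. The antagonists fell to 2 of 3 and the E(spl) list with gro to 7 of 8, while the Bearded family stayed at 7 of 8. The median percentile of the 10 genes was 32.8 among all genes listed, 24.6 among genes above 0 and 28.3 among protein-coding genes, both smaller sets of genes. Leaving out genes at 0 can only lower the percentile of a gene above 0. Those shifts were fixed in advance, though they count among the 26. Counts among the 26 moved only with the minimum of 5, and the rest of the 26 are percentiles. The difference between the Iroquois and proneural medians ran from -0.78 in the main setting to -1.05 without a pseudocount. With amos left out it was -0.84. A pseudocount cannot change the sign of this difference. Leaving out amos, the lowest proneural gene, can only raise the proneural median. The negative sign was therefore not tested by these alternatives, though they count among the 40. Taking the largest row or status OK changed nothing for the 10 genes, and the minimum of 0.1 left out no Iroquois gene. These settings are no test of those genes, though they count among the 40. No paired analysis was possible because each species has a single library. Depth limits amos, cato and l(1)sc, which rest on 1, 10 and 16 implied reads.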

Other observations

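Other bHLH genes of the Atonal-related and neighboring families spread widely around a low median. Of 14 matched, 9 reached FPKM 1, against 74.5% of all genes, and the median was 1.74. Hand, a factor of heart and visceral mesoderm, was highest at 25.9, and the Atonal-related genes tap and Oli stood at 1.87 and 7.14. The lowest were HLH3B at 0.0556 and dimm, a factor of peptidergic neurons, at 0.0785, from 1 and 4 implied reads.

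The 4 other homeobox genes of the TALE class that were listed stood higher than the Iroquois genes of that class. The gene exd, a cofactor of Hox proteins, stood at 93.5 and its partner hth at 44.2, while achi and vis, a pair of neighboring copies with a role in spermatogenesis, stood at 4.70 and 3.24. The lowest of them, vis, lay above mirr at 2.40, the highest Iroquois gene. The copies achi and vis are similar in sequence, so the split of reads between them is uncertain. Which tissues gave these reads was not tested.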
